A study of Mus musculus with 6 samples.

Results

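The genes described here are the nuclear-encoded genes of oxidative phosphorylation, taken by symbol from the feature list of 6 single-nucleus libraries of mouse hippocampus. They were all symbols starting with Nduf, Uqcr, Cox4 to Cox8 or Atp5, together with Sdha, Sdhb, Sdhc and Sdhd and without -ps pseudogene symbols, which gave 93 of 31053 features under 92 symbols (Atp5o had 2 identifiers). By complex, 36 belonged to complex I, 8 were complex I assembly factors (Ndufaf symbols), 4 belonged to complex II, 8 to complex III, 20 to complex IV and 17 features to complex V. Ndufa4 and Ndufa4l2 were counted with complex IV, where Ndufa4 is now placed. The values used were UMIs, which count captured RNA molecules, summed per library over nuclei with at least 200 detected genes and at most 5% of UMIs from mt- genes.

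Oxidative phosphorylation is carried out in the inner mitochondrial membrane. Complexes I and II take electrons from NADH and succinate, complex III passes them to cytochrome c, complex IV (cytochrome c oxidase) hands them to oxygen, and complex V (ATP synthase) uses the resulting proton gradient to make ATP. Most subunits are encoded in the nucleus and imported, while a small core of complexes I, III, IV and V is encoded in the mitochondrial genome by the mt- genes, so the complexes need products of both genomes. Resting microglia rely largely on oxidative phosphorylation and activated microglia are known to shift towards glycolysis.

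The study sorted PU.1-labelled nuclei, PU.1 being a transcription factor of the myeloid lineage, from hippocampi of 9.5-month-old mice to ask how TREM2 and APOE4 bear on the microglial response to tau. There were 6 genotypes with 1 library each, and each library pooled 3 mice: P301S/E4/TREM2+ and P301S/E4/TREM2- (the tau P301S transgene with human APOE4), E4/TREM2+ and E4/TREM2- (APOE4 without the tau transgene), and lastly P301S/EKO/TREM2+ with P301S/EKO/TREM2- (the tau transgene, with EKO read as Apoe knockout). TREM2+ and TREM2- stand for Trem2 present or removed. The promoter that drives the tau transgene and the nature of the Trem2 allele are not given in the sources used here, and with 1 pool per genotype no genotype had a replicate.

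Promoter sequence is shown first for the called complex IV genes, because a shared promoter motif is a feature that the choice by symbol did not use. RefSeq promoter windows on GRCm38.p6, from 250 bases before to 50 bases after each start site, were found for 76 of the 92 symbols (81 windows). The motif CCGGAAG, the core bound by the ETS factor GABPA, was in 22.2% of these windows on either strand and in 8.86% of all 32851 windows of that length. The longer NRF1-like motif TGCGCATGC was in 7.41% against 1.52%, and the YY1-like motif AAGATGGC in 13.6% against 2.75%. The windows of these genes also held more G and C, with a median of 58.3% against 52.7%, and more CpG dinucleotides, with a median of 20 against 7. Of the members with an entry, 3 of 14 complex IV genes held the GABPA-like motif, as did 4 of 32 complex I genes and 5 of 15 complex V genes. The windows of Cox8a (chr19:7217567-7217866, minus strand), Cox6a1 (chr5:115348909-115349208, minus strand), Cox5a (chr9:57520982-57521281, plus strand) and Ndufa4 (chr6:11907401-11907700, minus strand) are printed 5′ to 3′ along the gene, with matches to the GABPA-like motif on the opposite strand in capitals.
Cox8a: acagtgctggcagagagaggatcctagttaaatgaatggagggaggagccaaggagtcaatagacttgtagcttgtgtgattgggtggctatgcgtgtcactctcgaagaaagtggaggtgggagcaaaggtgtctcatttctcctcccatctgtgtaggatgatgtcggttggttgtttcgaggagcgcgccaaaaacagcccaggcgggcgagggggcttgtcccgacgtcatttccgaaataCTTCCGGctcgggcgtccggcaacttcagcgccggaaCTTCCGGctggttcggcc
Cox6a1: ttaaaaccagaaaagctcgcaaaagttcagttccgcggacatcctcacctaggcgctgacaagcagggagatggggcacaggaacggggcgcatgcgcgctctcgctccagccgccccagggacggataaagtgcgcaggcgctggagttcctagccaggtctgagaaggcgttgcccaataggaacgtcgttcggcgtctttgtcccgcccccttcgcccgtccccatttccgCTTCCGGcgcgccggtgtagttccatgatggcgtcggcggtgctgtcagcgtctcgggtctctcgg
Cox5a: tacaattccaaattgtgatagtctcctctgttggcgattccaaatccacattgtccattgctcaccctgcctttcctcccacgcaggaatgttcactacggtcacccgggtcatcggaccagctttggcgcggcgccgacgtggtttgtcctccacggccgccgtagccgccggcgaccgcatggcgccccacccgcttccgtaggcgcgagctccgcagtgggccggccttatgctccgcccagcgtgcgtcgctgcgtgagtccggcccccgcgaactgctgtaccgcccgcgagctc
Ndufa4: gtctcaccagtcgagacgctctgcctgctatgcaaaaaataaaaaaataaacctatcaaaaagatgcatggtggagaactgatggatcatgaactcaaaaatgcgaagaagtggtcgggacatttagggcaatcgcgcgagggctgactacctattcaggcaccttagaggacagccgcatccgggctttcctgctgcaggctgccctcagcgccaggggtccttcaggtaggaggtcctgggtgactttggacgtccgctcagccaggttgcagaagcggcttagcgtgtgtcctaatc
Cox8a held 2 matches, whose first bases lay 5 bases before and 32 bases after the annotated start, and Cox6a1 held 1, starting 16 bases before it. Cox5a and Ndufa4 held none of the 3 motifs in these windows. Cox6a2 and Cox6c had no entry. Matches are a description of the letters and no binding was measured.

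The 6 libraries held 33335 nuclei, of which 307 with under 200 genes, all from P301S/EKO/TREM2-, and 1290 over the mt- limit were left out. The remaining 31738 nuclei had 28636665 UMIs, between 3172124 and 8376816 per library, with a median per nucleus from 569 to 915. Any pair of libraries shared 5 to 13 cell barcodes, at most 0.235% of the smaller one. Microglia-like clusters held 90.7% to 96.1% of the nuclei of a library. Trem2 was at 348 to 580 CPM (100 times the UMIs per 10000 UMIs of the library) in the TREM2- libraries and at 917 to 1114 CPM in the TREM2+ libraries, so Trem2 UMIs remained where it is labelled as removed. Apoe was at 14.2 and 9.14 CPM in the P301S/EKO libraries and at 187 to 1184 CPM in the others. Counting intervals below are 95% intervals that cover counting error only.

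The oxidative phosphorylation genes were lowest in P301S/E4/TREM2-. All members together made up 42.7 of every 10000 UMIs in P301S/E4/TREM2+ and 32.1 in P301S/E4/TREM2-, 44.2 and 43.4 in the E4 pair (TREM2+ first), and 43.9 and 49.9 in the P301S/EKO pair. Of these libraries, 4 lay between 42.7 and 44.2, so that P301S/E4/TREM2- stood below and P301S/EKO/TREM2- above the rest. The order was shared by most members: among the 85 with at least 100 UMIs, 65 had their lowest CPM in P301S/E4/TREM2- and 49 their highest in P301S/EKO/TREM2-. The 13 protein-coding mt- genes were ordered differently, at 46.8 and 62.9 per 10000 in P301S/E4/TREM2+ and P301S/E4/TREM2-, 108 and 119 in the E4 pair and 101 and 79.6 in the P301S/EKO pair. Both P301S/E4 libraries were thus lowest for the mt- genes, and only 1 of them was low for the nuclear genes. In sums over all nuclei of a library, fewer nuclei of a kind and less RNA per nucleus cannot be told apart. Sums within clusters are given below.

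**Figure D1:**
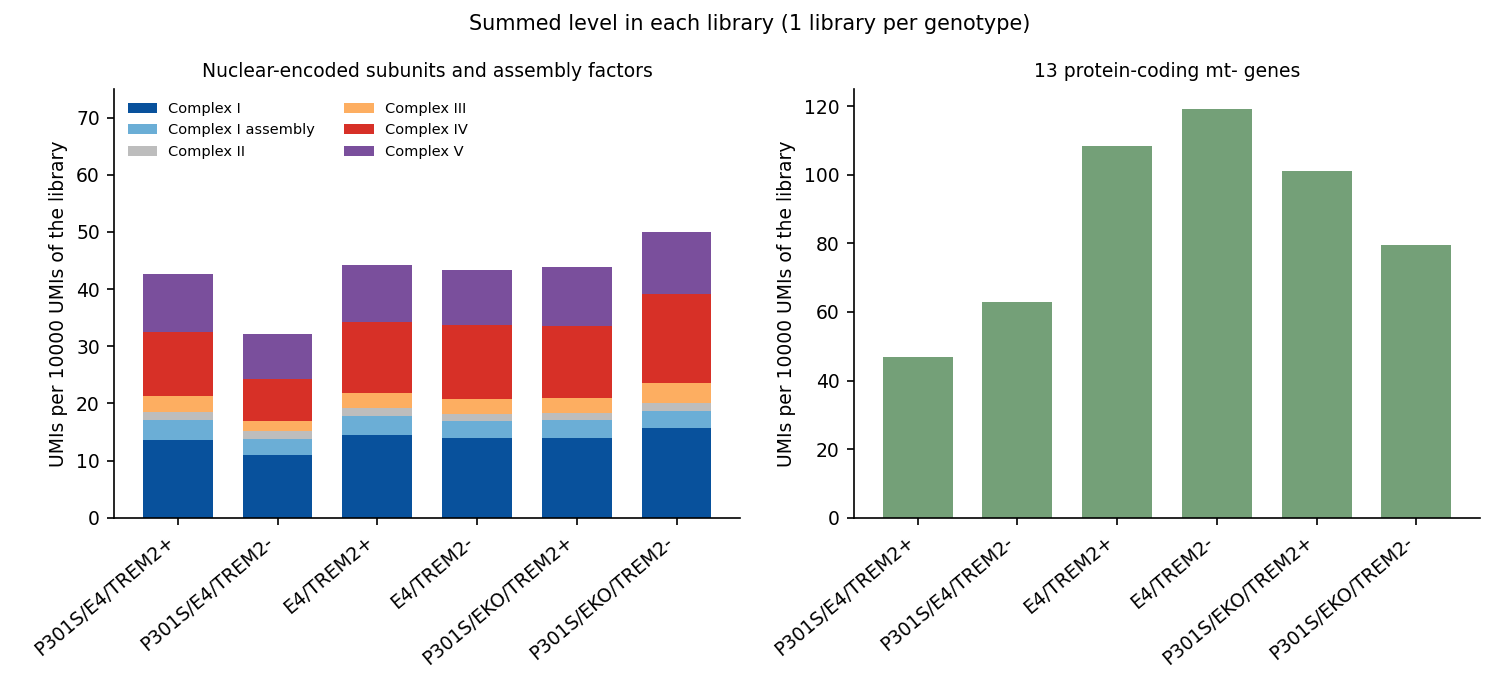
Bars give UMIs per 10000 UMIs of each library, for the nuclear-encoded genes stacked by complex (left) and for the 13 mt- genes (right), with 1 library per genotype. The nuclear-encoded sum is 32.1 in P301S/E4/TREM2- and 42.7 to 49.9 elsewhere, while the mt- sum is 46.8 and 62.9 in the P301S/E4 libraries and 79.6 to 119 in the others.

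Within the P301S/E4 background, the TREM2- library was lower for complexes I, III, IV and V and for the assembly factors, and least separated for complex II. The ratio of TREM2- to TREM2+ for all members was -0.41 on the log2 scale (interval -0.43 to -0.38). By complex it was -0.64 (-0.69 to -0.59) for complex IV, -0.57 (-0.67 to -0.47) for complex III, -0.36 (-0.41 to -0.31) for complex V and -0.33 (-0.37 to -0.28) for complex I. The complex I assembly factors gave -0.23 (-0.32 to -0.15), and complex II gave -0.09 (-0.22 to 0.05), an interval that includes 0. Of the 85 members, 79 were below 0, and the counting interval lay below 0 for 59 (69.4%) and above 0 for 2. Over the 11825 genes with at least 100 UMIs it lay below 0 for 16.2% and above 0 for 22.8%. Those 2 were Sdha, the flavoprotein subunit of complex II (0.18, 0.0045 to 0.36), and Ndufa9, a complex I subunit (0.35, 0.06 to 0.64), both named after their values were seen. Of those 11825 genes, 5277 were below 0. In the same pair the mt- genes went the other way, at 0.43 (0.41 to 0.45), and the cytosolic ribosomal protein genes were at -0.15 (-0.16 to -0.14). Malat1, a nuclear RNA, was at -0.25 (-0.26 to -0.25), and its part in the members' difference was not tested.

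The 2 genes with the most UMIs in each complex are given next, and none of them but Cox8a was called in any contrast. In complex I, Ndufa10, an accessory subunit, was at 76.7 and 61.8 CPM in P301S/E4/TREM2+ and P301S/E4/TREM2-, at 70.3 and 70.2 CPM in the E4 pair and at 73.0 and 87.6 CPM in the P301S/EKO pair. Ndufa13, an accessory subunit also linked to cell death signalling, was at 74.4 and 59.1 CPM, then 79.3 and 81.4 CPM, then 66.4 and 81.0 CPM in the same order. Both were lowest in P301S/E4/TREM2-. Of the 8 assembly factors, 4 were lowest in that library too, but not the 2 with the most UMIs. Ndufaf4 was at 169 and 140 CPM in the P301S/E4 pair, at 173 and 139 CPM in the E4 pair and at 147 and 135 CPM in the P301S/EKO pair, lower in TREM2- each time. Ndufaf7, a methyltransferase of complex I assembly, varied only from 93.1 to 98.9 CPM over all 6 libraries.

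In complex II, Sdha was at 73.7 and 83.6 CPM in the P301S/E4 pair, at 80.1 and 61.8 CPM in the E4 pair and at 63.1 and 72.2 CPM in the P301S/EKO pair. Of the 85 members with at least 100 UMIs, Sdha was the only 1 highest in P301S/E4/TREM2-. Sdhb, the iron-sulfur subunit, was at 34.4 and 22.3 CPM, then 33.7 and 29.4 CPM, then 31.3 and 35.9 CPM, so Sdha and Sdhb differed in direction in P301S/E4 but not in the other 2 pairs. In complex III, Uqcrh, the hinge protein between cytochromes, was at 47.6 and 31.0 CPM in the P301S/E4 pair, at 41.0 and 48.1 CPM in the E4 pair and at 53.2 and 55.2 CPM in the P301S/EKO pair.

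Uqcrq, a small complex III subunit, was at 45.2 and 31.2 CPM in P301S/E4, at 41.9 and 42.6 CPM in E4 and at 39.3 and 55.8 CPM in P301S/EKO. In complex IV, Cox7c, a small structural subunit, was at 350 and 225 CPM, then 308 and 333 CPM, then 319 and 407 CPM in that order. In complex V, Atp5b, the catalytic beta subunit, was at 117 and 105 CPM, then 117 and 120 CPM, then 136 and 136 CPM. These were again lowest in P301S/E4/TREM2-. Atp5j2, the f subunit of the membrane part, was at 114 and 99.4 CPM, then 87.4 and 103 CPM, then 110 and 109 CPM, and was lowest in E4/TREM2+.

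In the other TREM2 pairs the member sum was not clearly lower in TREM2-. In E4 it gave -0.03 (-0.06 to 0.0044), with 40 of 85 members below 0, but complex II was at -0.21 (-0.39 to -0.02) and the assembly factors at -0.16 (-0.28 to -0.05). In P301S/EKO it gave 0.18 (0.15 to 0.22), with 62 of 85 members above 0 against 5022 of the 11825 genes. Complexes III and IV were highest at 0.34 each (0.22 to 0.46 and 0.28 to 0.39), and the assembly factors were at -0.11 (-0.23 to 0.02). Cytosolic ribosomal protein genes, at 0.17 (0.15 to 0.19), and Malat1, at 0.20 (0.20 to 0.21), were higher in that library by about as much as the members, and their part in the difference was not tested. There, Cox4i1, the complex IV subunit through which the enzyme responds to ATP, went from 127 CPM in TREM2+ to 208 CPM in TREM2-, and from 125 to 83.9 CPM in P301S/E4. The mt- genes in the P301S/EKO pair were lower in TREM2-, at -0.35 (-0.37 to -0.32). The nuclear and mt- sums therefore moved in opposite directions in the P301S/E4 and in the P301S/EKO pair, and in reverse order. In the E4 pair the mt- genes were at 0.13 (0.115 to 0.154), while the interval of the member sum included 0. Whether the TREM2 difference depends on background could not be tested with 1 library per genotype.

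**Figure D2:**
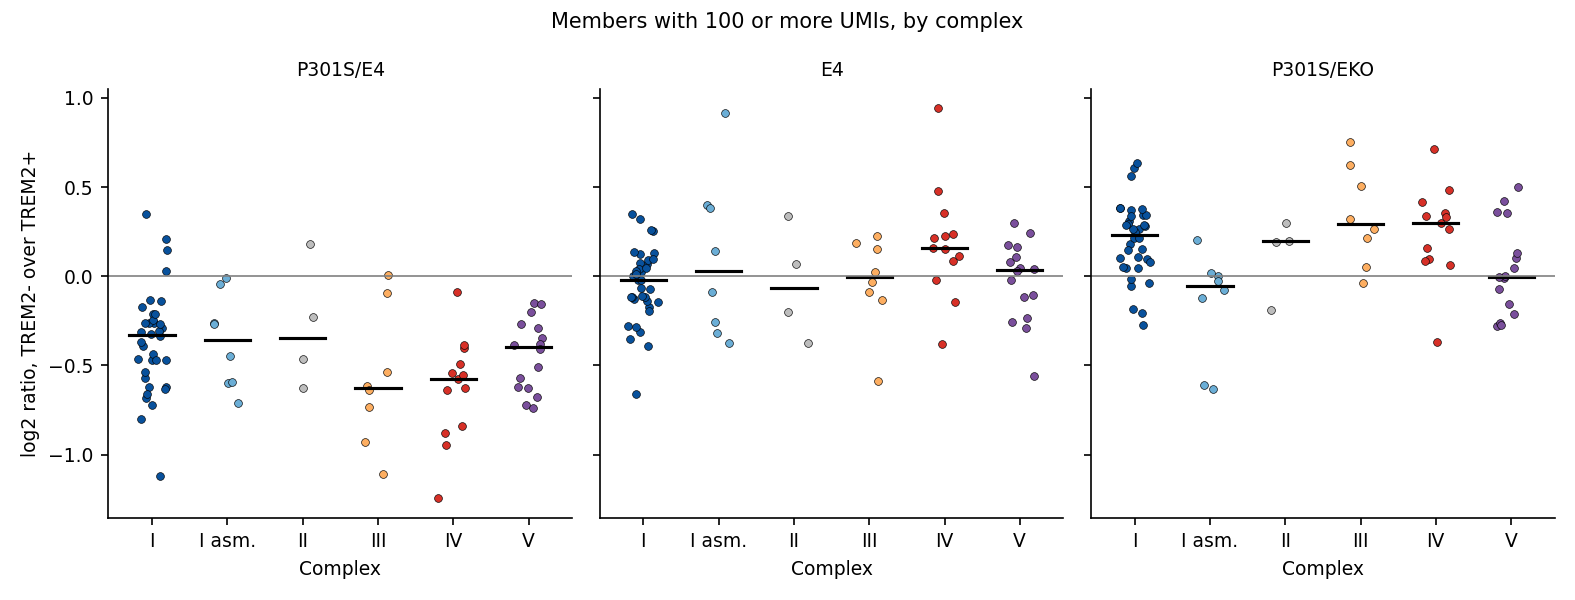
Each point is 1 of the 85 members with at least 100 UMIs, placed by complex (x axis, asm. for assembly factors) and by its log2 ratio of TREM2- over TREM2+ (y axis) in the P301S/E4, E4 and P301S/EKO backgrounds, and black lines are medians per complex. In P301S/E4, 79 of 85 points lie below 0, against 40 of 85 in E4 and 23 of 85 in P301S/EKO.

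Across the 3 backgrounds no member was called for TREM2. The comparison was an additive edgeR quasi-likelihood fit over all 6 libraries with background and TREM2 genotype as terms. It tested 12515 genes and called those whose p, adjusted by Benjamini-Hochberg over all of them, was at most 0.05. Of the 93 features, 86 passed its filter on low counts. Of all genes tested, 0.0320% rose and 0.0799% fell, and 0 of the 86 members did either. With no adjustment, 3 members had a p of 0.05 or less, all lower in TREM2-, a share of 3.49% against 6.22% of all genes: Atp5a1, the catalytic-head alpha subunit of complex V, Atp5g3, a gene for the rotor ring subunit c, and Ndufb3 of complex I. DESeq2 also called 0, and 0 at an unadjusted p of 0.05 or less. The members' median log2 fold change was -0.07, beside 0.01 over all genes, and turned to 0.15 without P301S/E4/TREM2-. It was 0.14 without P301S/E4/TREM2+, and -0.25 and -0.24 without the TREM2+ and the TREM2- library of P301S/EKO, where Cox6c was called as fallen. Among members with at least 100 UMIs, the highest value was that of Cox7a2l, a factor that joins complexes III and IV into supercomplexes (0.25, SE 0.16, adjusted p = 0.927), and the lowest that of Cox6a2 (-0.60, SE 0.36, adjusted p = 0.910).

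The tau contrast, P301S/E4 minus E4 over both TREM2 genotypes, called 6 of the 86 members, all of complex IV. Cox5a, Cox6a1, Cox6c, Cox8a and Ndufa4 fell and Cox6a2 rose, against 9.24% of all genes tested that fell and 7.80% that rose, so the members were called in neither direction more often than other genes. The members' median log2 fold change was -0.24 beside -0.0015 for all genes, and 72 of 86 were below 0 against 6271 of 12515. By complex the median was -0.53 for complex IV, -0.28 for complex I, -0.23 for complex III, -0.19 for complex V, and -0.06 both for complex II and for the assembly factors. With no adjustment, 19 members (22.1%) had a p of 0.05 or less, 1 higher and 18 lower, against 28.8% of all genes. DESeq2 called 3: Cox6a2 as risen, and Cox8a and Ndufa4 as fallen.

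Cox8a, one of the small structural subunits of complex IV, was at 143 CPM in P301S/E4/TREM2+ and 79.6 in P301S/E4/TREM2-, at 201 and 182 CPM in the E4 pair and at 194 and 233 CPM in the P301S/EKO pair. Both P301S/E4 libraries were below all others, and P301S/E4/TREM2- was the lowest. It fell with tau by 0.86 on the log2 scale (SE 0.22, adjusted p = 0.0237, edgeR). Cox6c, another such subunit, was at 106 and 57.4 CPM in the P301S/E4 pair, at 164 and 126 CPM in the E4 pair and at 135 and 167 CPM in the P301S/EKO pair. It had the lowest tau value of all members with at least 100 UMIs, -0.90 (SE 0.23, adjusted p = 0.0226, edgeR), and again both P301S/E4 libraries lay below the rest.

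Ndufa4, first described in complex I and now assigned to complex IV, was at 56.1 and 38.4 CPM in the P301S/E4 pair against 76.2 and 84.7 in the E4 pair and 74.7 and 94.3 in the P301S/EKO pair. The difference with tau was -0.82 (SE 0.21, adjusted p = 0.0217, edgeR). Cox6a1, the widely expressed form of subunit 6a, was at 56.6 and 36.6 CPM against 71.1 and 79.4 in the E4 pair and 67.2 and 89.5 in the P301S/EKO pair, with a difference of -0.75 (SE 0.23, adjusted p = 0.0490, edgeR). Cox5a, a subunit that binds thyroid hormone metabolites, was at 38.6 and 27.5 CPM against 46.4 and 54.3 in the E4 pair and 52.7 and 55.2 in the P301S/EKO pair, with a difference of -0.67 (SE 0.20, adjusted p = 0.0467, edgeR). In each of these genes P301S/E4/TREM2- was the lowest library and P301S/E4/TREM2+ the next, and both lay below the other 4.

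These calls rested on single libraries. Without P301S/E4/TREM2- none of the 5 falls was called: their log2 fold changes shrank to between -0.25 and -0.46, the smallest adjusted p was 0.0964, and the members' median was -0.0017. They were also lost without E4/TREM2-, with a members' median of -0.17. In nuclei with at most 1% mt- UMIs none of the 5 was called either, and the members' median was -0.26. Without P301S/E4/TREM2+ the members' median was -0.53, beside 0.02 for all genes. It was -0.23 both without P301S/EKO/TREM2+ and without P301S/EKO/TREM2-, which are no part of the contrast but feed its estimate of spread. Without E4/TREM2+ it was -0.36, and the value of Cox6a2 was 1.55. In pairs of libraries the member sum with tau was -0.43 (-0.46 to -0.41) in TREM2- and -0.05 (-0.08 to -0.02) in TREM2+. The corresponding values for complex IV were -0.82 (-0.88 to -0.77) and -0.13 (-0.19 to -0.08).

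**Figure D3:**
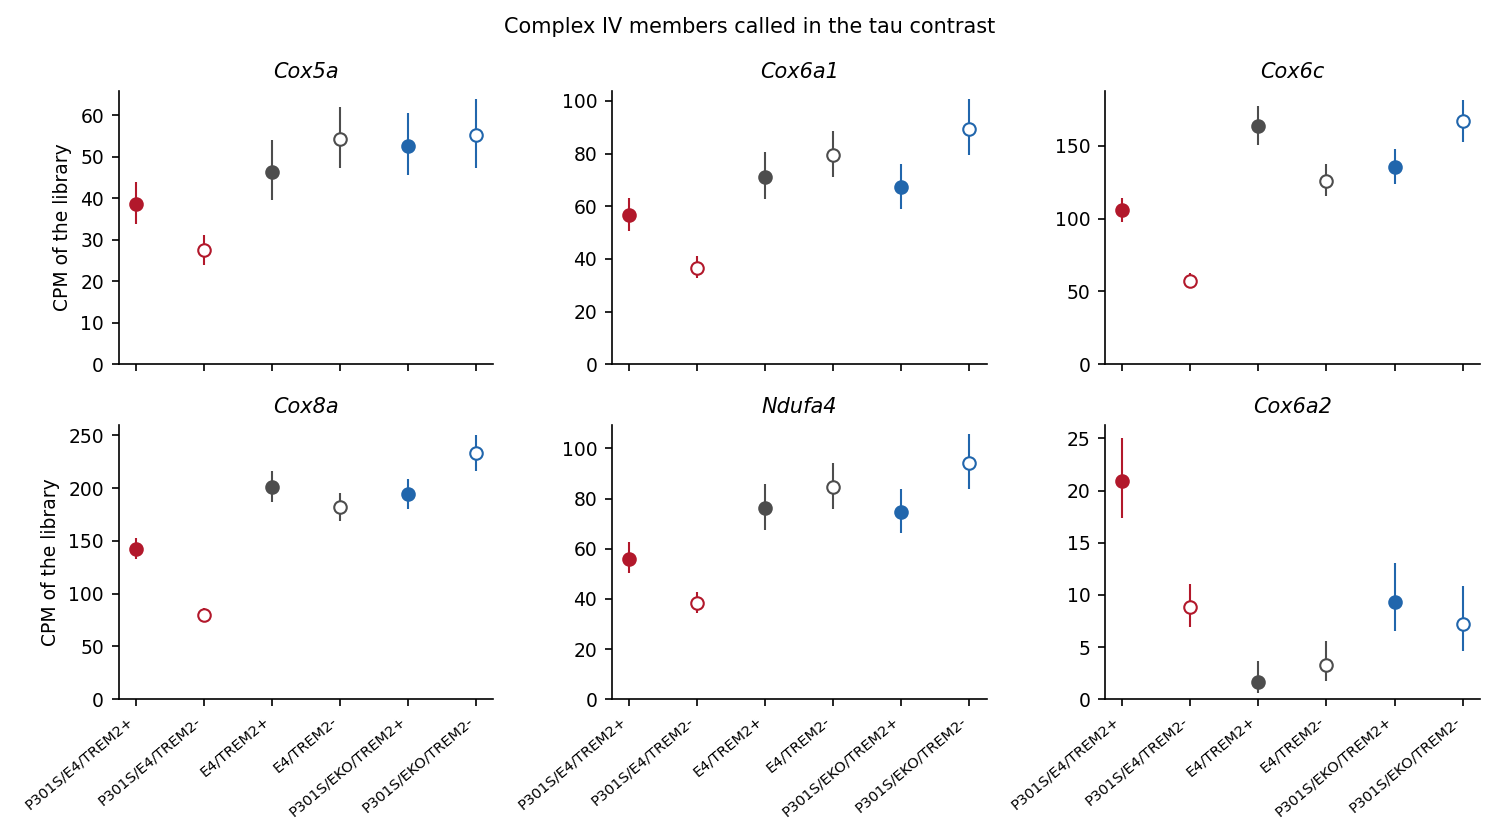
Points give CPM in each of the 6 libraries for the complex IV genes called in the tau contrast (linear axes from 0), filled for TREM2+ and open for TREM2-, with bars for the 95% Poisson interval of the count. Cox5a, Cox6a1, Cox6c, Cox8a and Ndufa4 are lowest in P301S/E4/TREM2- (red open), whereas Cox6a2 is highest in P301S/E4/TREM2+ at 20.9 CPM.

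Markers of microglia and of other cell types moved with this contrast. The 23 microglia markers summed to 246 and 237 per 10000 UMIs in the P301S/E4 libraries (TREM2+ first) and to 312 and 336 in the E4 libraries. Of these, 11 fell with tau and 1 rose. Among 8 border-associated macrophage markers, 5 fell and 1 rose. The 11 neuron markers summed to 2.43 and 3.40 per 10000 UMIs in the P301S/E4 libraries and to 8.80 and 21.3 in the E4 libraries. Of these neuron markers, 8 fell with tau, against 9.24% of all genes tested, and none was at 0 in any library. The 7 astrocyte markers summed to 7.22 and 4.59 in P301S/E4 and to 3.64 and 3.77 in E4, again with none at 0. In microglia-like clusters alone the same 5 members fell, as did Ndufc2, and Cox6a2 rose. These were 6 of 85 members that fell, against 872 of all 11821 genes tested there, while 964 genes rose.

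The APOE4 contrast, P301S/E4 minus P301S/EKO over both TREM2 genotypes, shares the P301S/E4 libraries with the tau contrast. Cox8a alone of 86 members was called, as fallen (-0.97, SE 0.23, adjusted p = 0.0421, edgeR), and 0 members rose. With no adjustment, 20 members (23.3%) had a p of 0.05 or less, all lower, against 18.3% of all genes. DESeq2 called 1 member as fallen and 0 as risen. Over all genes tested, 1.87% fell and 1.80% rose. The members' median was -0.31, with 74 of 86 below 0, and by complex it was -0.68 for complex IV, -0.41 for complex III, -0.32 for complex V and -0.31 for complex I, against 0.03 for complex II and -0.03 for the assembly factors. The values next to the threshold were also of complex IV: -0.93 for Cox6c (SE 0.24, adjusted p = 0.0574, edgeR), -0.83 for Ndufa4 (SE 0.21, adjusted p = 0.0597, edgeR) and -0.70 for Cox7b (SE 0.18, adjusted p = 0.0639, edgeR). The highest was that of Cox6a2 (0.79, SE 0.39, adjusted p = 0.324).

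The single APOE4 call was lost without P301S/E4/TREM2- (-0.49, adjusted p = 0.101) and without P301S/EKO/TREM2- (-0.57, adjusted p = 0.184), where the members' medians were 0.0046 and -0.05. It was also lost in microglia-like clusters (-0.81) and after thinning each nucleus to 500 UMIs (-0.67). Without P301S/E4/TREM2+ the members' median was -0.62, beside 0.02 for all genes, and without P301S/EKO/TREM2+ it was -0.49, beside 0.01. In pairs of libraries the member sum was -0.63 (-0.66 to -0.61) in TREM2- and -0.04 (-0.07 to -0.01) in TREM2+, and the TREM2+ value turned to 0.04 in microglia-like clusters. Neuron markers summed to 5.08 and 6.47 per 10000 in the P301S/EKO libraries, and 5 of 11 fell with APOE4.

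The 13 genes of the mitochondrial genome were lower in P301S/E4 in both contrasts, and more of them were called than of the nuclear genes. The libraries were of sorted nuclei, and the median share of mt- UMIs per nucleus ran from 0.158% in P301S/E4/TREM2+ to 0.844% in E4/TREM2-. For these genes, as for the nuclear-encoded ones, genotype and the preparation of each pool cannot be told apart with 1 pool per genotype. With tau, 12 of 13 fell, all but mt-Atp8, with a median of -1.12 and values from -1.39 for mt-Nd1 to -0.99 for mt-Atp8. With APOE4, 7 fell (median -0.77), and for TREM2 none was called by edgeR or DESeq2 and 0 reached 0.05 in edgeR before adjustment, although all 13 were above 0 (median 0.13). mt-Cytb, the mitochondrially encoded cytochrome b of complex III, was at 571 and 688 CPM in the P301S/E4 pair, at 1309 and 1379 CPM in the E4 pair and at 1208 and 1009 CPM in the P301S/EKO pair. Its tau difference was -1.14 (SE 0.13, adjusted p = 0.000238, edgeR) and its APOE4 difference -0.81 (SE 0.13, adjusted p = 0.0104, edgeR). Without P301S/E4/TREM2-, the library on which the nuclear falls rested, all 13 fell in both contrasts. The lowest number of mt- genes called over all libraries left out in turn was 9 with tau and 2 with APOE4. Limits on mt- UMIs act on these genes directly. The 5% limit used above left out from 81 nuclei in P301S/E4/TREM2+ to 344 in E4/TREM2-. With no mt- limit, the medians were -1.06 with tau, -0.67 with APOE4 and 0.38 for TREM2. There 12, 3 and 0 mt- genes were called, in that order. In nuclei with at most 1% mt- UMIs, the tau median was -0.62 and 1 mt- gene was called with APOE4.

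Complex IV has tissue-specific paralogues, and only 2 of them reached 99 UMIs or more. Cox6a2, the heart and skeletal muscle form of subunit 6a, had 272 UMIs. The testis form Cox6b2 had 99, at 2.21 to 5.54 CPM, and was not called in any contrast. The muscle forms Cox7a1 and Cox8b had 14 and 8 UMIs in all 6 libraries, Cox7b2 had 7, Cox4i2, induced by low oxygen in lung, had 4, and Ndufa4l2, also induced by low oxygen, had 4. Cox8c of the testis and the second Atp5o identifier had 0, and these 7 features were not tested. The widely expressed partners Cox4i1, Cox6b1, Cox7a2 and Cox7b had tau values of -0.51, -0.61, -0.55 and -0.31, none called. Cox4i1 overlaps genes on both strands and Cox6c a gene on the other strand, and whether any of their UMIs came from those was not tested. The Atp5g genes, which encode the same mature subunit c, had tau values of -0.57 for Atp5g1, -0.46 for Atp5g2 and -0.02 for Atp5g3, none called.

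With tau, Cox6a2 moved against its paralogue Cox6a1. It had 121 UMIs in P301S/E4/TREM2+ and 74 in P301S/E4/TREM2-, 6 and 13 in the E4 pair (TREM2+ first), and 35 and 23 in the P301S/EKO pair. Scaled to the library this was 20.9 and 8.83 CPM, 1.69 and 3.24 CPM, and 9.37 and 7.25 CPM. All 4 libraries with the tau transgene were above both libraries without it. It rose with tau by 2.41 (SE 0.47, adjusted p = 0.00521, edgeR), and stayed called without each library in turn except E4/TREM2+. With APOE4 it was called only without P301S/E4/TREM2- (1.38, adjusted p = 0.0336). Between TREM2- and TREM2+ in P301S/E4 its ratio was -1.25 (-1.68 to -0.82), the lowest of the 85 members. Cox6a1 was also lower in TREM2- than in TREM2+ there.

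Cox6a2 (ENSMUSG00000030785) lies at chr7:128205435-128206387 on the minus strand of GRCm38, inside the span of Itgad on the plus strand and 54778 bases from Itgax. Itgax encodes the integrin CD11c and marks disease-associated microglia. Cox6a2 and Itgad were counted as separate features. Whether reads were counted by strand is not given in the sources used here. Whether any reads of Itgad were counted for Cox6a2 was not tested. Itgad itself had 21 and 16 UMIs in the P301S/E4 pair, 0 and 2 in the E4 pair and 7 and 6 in the P301S/EKO pair. Itgax had 671 and 209 UMIs, 19 and 9 UMIs, and 187 and 48 UMIs in the same order, and rose with tau by 4.06 (SE 0.28, adjusted p = 1.88e-05, edgeR). Shares of nuclei were compared within libraries, because 553 of the 977 nuclei with an Itgax UMI came from P301S/E4/TREM2+, the library highest for Cox6a2. There, 4.52% of nuclei with an Itgax UMI also had a Cox6a2 UMI (exact binomial interval 2.95% to 6.60%), against 1.58% (1.27% to 1.94%) of those without. In P301S/E4/TREM2- the shares were 3.26% (1.21% to 6.96%) and 0.924% (0.711% to 1.18%). Nuclei with an Itgax UMI were deeper, with median UMIs of 892 against 765 and of 1305.5 against 909, and the part of depth in these differences was not tested. In P301S/EKO/TREM2+ the shares were 0.595% (0.0151% to 3.27%) and 0.996% (0.691% to 1.39%), which overlap.

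The low level in P301S/E4/TREM2- was present in every cluster that could be compared. Nuclei were clustered without the members, and among the 10 clusters with at least 100 nuclei in both P301S/E4 libraries the member sum was lower in TREM2- in 10, by ratios of 0.780 to 0.851. In the cluster led by Lpl and Itgax (cluster 2) it was 40.1 per 10000 in TREM2+ and 31.9 in TREM2-. It was 35.0 and 29.5 in the cluster led by Gpnmb (cluster 7) and 36.0 and 29.3 in border-associated macrophage-like nuclei (cluster 6). In P301S/EKO the sum was higher in TREM2- in 7 of 7 clusters, by ratios of 1.03 to 1.24. The E4 pair differed least, with ratios of 1.01 to 1.09 over 5 clusters. Nuclei were also compared within ranges of UMIs per nucleus. P301S/E4/TREM2- was below P301S/E4/TREM2+ in each of the 5 ranges that held both, at 36.3 and 44.7 per 10000 with 500 to 750 UMIs, 33.3 and 39.6 with 750 to 1000, 31.0 and 36.0 with 1000 to 1500, and 29.1 and 36.1 with 1500 to 3000. At 3000 or more UMIs the gap was widest, with 32.3 over 246 nuclei against 66.9 over 96. Cytosolic ribosomal protein genes differed in that range too, at 105 per 10000 in P301S/E4/TREM2- and 189 in P301S/E4/TREM2+. The mix of cell types in that range was not compared, and its part in the gap there was not tested. The higher level of P301S/EKO/TREM2- did not hold at each depth. It was at 47.6 against 43.8 in P301S/EKO/TREM2+ with 500 to 750 UMIs, but at 39.6 against 39.3 with 750 to 1000 and at 38.4 against 37.3 with 1000 to 1500, where the intervals overlap. In the latter ranges another library was higher, E4/TREM2- at 40.2 and E4/TREM2+ at 41.8. With 1500 to 3000 UMIs P301S/EKO/TREM2- was the higher of its pair, at 54.2 (49.8 to 58.9) over 55 nuclei. P301S/EKO/TREM2+ was at 37.6 (36.0 to 39.3) over 280 nuclei there. The 1827 nuclei of P301S/EKO/TREM2- under 500 UMIs were at 56.9 (55.2 to 58.7).

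**Figure D4:**
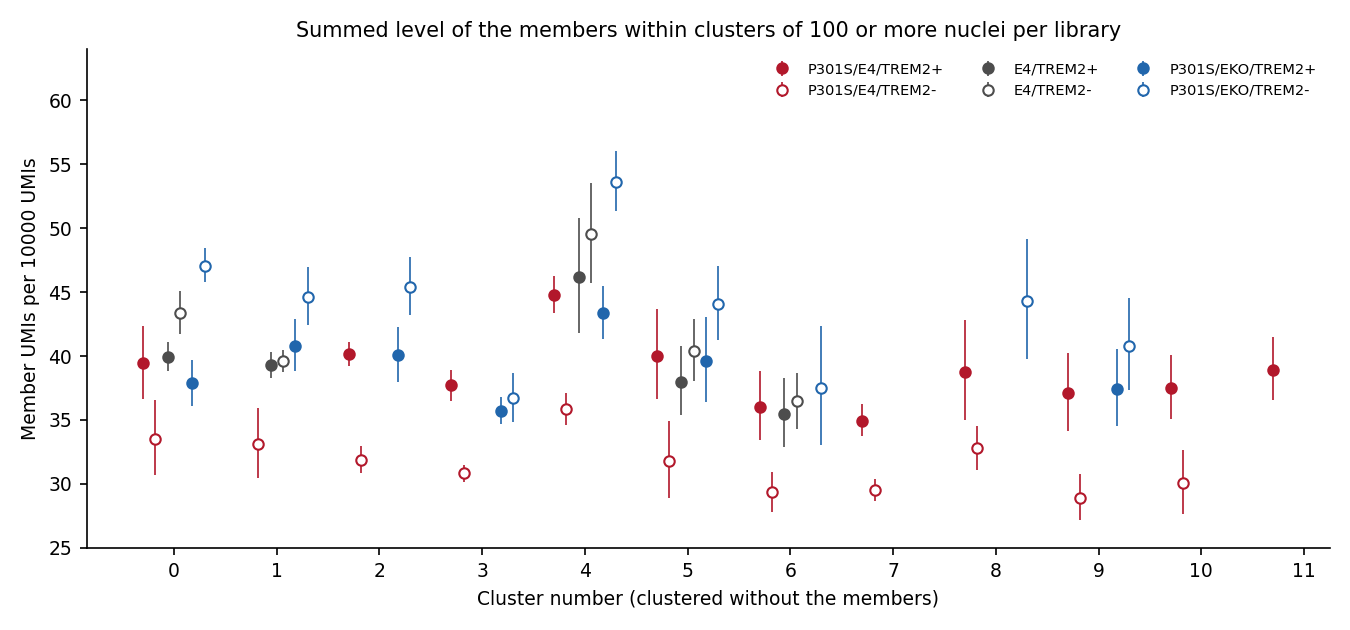
Points give the members' summed UMIs per 10000 UMIs (y axis, starting at 25) in each cluster and library with at least 100 nuclei, coloured by background and open for TREM2-, with 95% exact binomial intervals that cover counting error only. P301S/E4/TREM2- (red open) is below P301S/E4/TREM2+ in each of the 10 clusters that hold both, and cluster 12, at 168 per 10000, is not drawn.

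Clusters also differed among themselves within a library. In P301S/E4/TREM2- the microglia-like clusters ran from 28.9 per 10000 (27.2 to 30.8) in cluster 9, led by the interferon-response genes Cxcl10, Ifit2 and Rsad2, and 29.5 (28.7 to 30.4) in cluster 7 to 35.9 (34.6 to 37.1) in cluster 4, led by ribosomal protein genes. In P301S/E4/TREM2+ they ran from 35.0 (33.7 to 36.2) in cluster 7 to 44.8 (43.3 to 46.3) in cluster 4. The order of clusters 7 and 9 was thus not the same in both, and their intervals overlap. Over all libraries, an unnamed cluster of 431 nuclei led by Slc1a2, Mbp and Mobp, genes of astrocytes and oligodendrocytes, reached 168 (165 to 171), with 487 per 10000 from cytosolic ribosomal protein genes. Its share was 0.905% and 0.500% in P301S/E4/TREM2+ and P301S/E4/TREM2-, 1.45% and 1.35% in the E4 pair and 2.07% and 2.52% in the P301S/EKO pair, lowest and highest in the libraries that were lowest and highest for the members. In microglia-like clusters alone, the member sum was 39.2 and 31.5 in the P301S/E4 pair, 39.8 and 40.8 in the E4 pair and 38.0 and 45.5 in the P301S/EKO pair. P301S/E4/TREM2- was the lowest and P301S/EKO/TREM2- the highest there, the latter with the limit by depth given above.

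Short genes were lower in P301S/E4/TREM2- than long ones, among the members and among all genes. The members spanning under 5 kb in GENCODE had a median log2 ratio of -0.57 in the P301S/E4 pair, with 26 of 26 below 0, those of 5 to 20 kb -0.41 (45 of 46 below 0) and those of at least 20 kb -0.22 (8 of 13 below 0). All genes with at least 100 UMIs gave -0.17, 0.01 and 0.09 in these ranges. In the P301S/EKO pair the members' medians were 0.26, 0.10 and 0.10, beside 0.05, -0.03 and -0.08 for all genes. The members were thus lower than other genes of like span in the first pair and higher in the second. Whether intronic reads were counted is not given in the sources used here, and the part of intron content in these values was not tested.

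**Figure D5:**
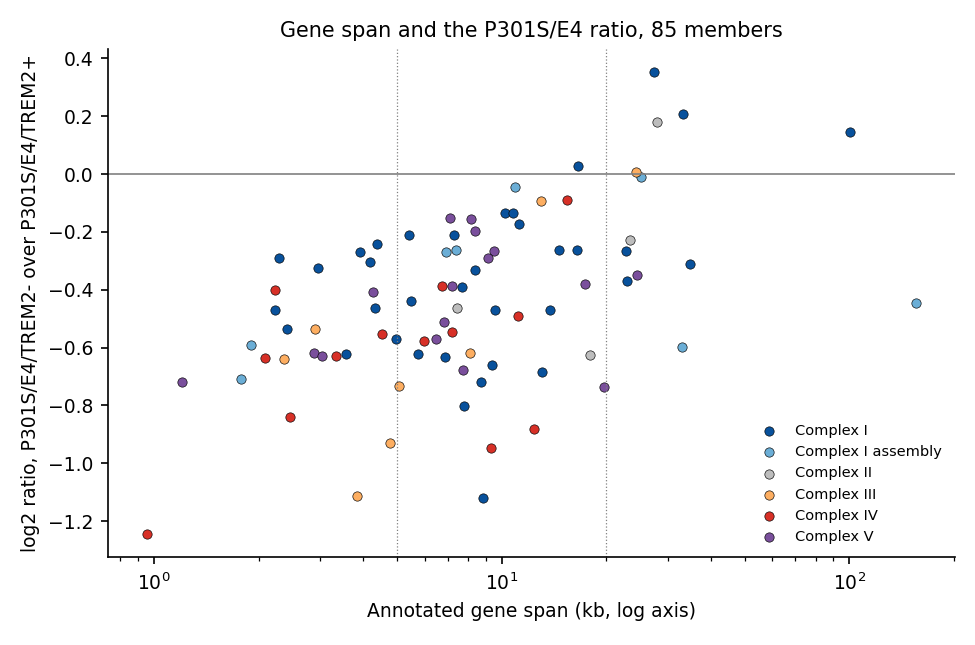
Each point is 1 of 85 members, by annotated gene span in kb (x axis, log scale) and log2 ratio of P301S/E4/TREM2- over P301S/E4/TREM2+ (y axis), coloured by complex, with dotted lines at 5 and 20 kb. All 26 members under 5 kb lie below 0, against 8 of 13 of at least 20 kb.

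Genes around the pathway were mostly not called. In the tau, APOE4 and TREM2 contrasts, 0 of 17 genes of the TCA cycle and pyruvate dehydrogenase, 0 of 26 assembly factors of complexes II to IV, 0 of 77 mitochondrial ribosomal protein genes and 0 of 2 cytochrome c genes were called by edgeR or by DESeq2. Of 17 regulators of mitochondrial gene expression, among them Ppargc1a, Nrf1, Gabpa and Tfam, 0 were called by either. With no adjustment, edgeR gave a p of 0.05 or less with tau for 3 of the TCA cycle genes, 2 of the assembly factors, 6 of the mitochondrial ribosomal protein genes, 1 of the cytochrome c genes (Cyc1) and 3 of the regulators, and with APOE4 for 1, 0, 3, 0 and 2. Over all genes the share was 28.8% with tau and 18.3% with APOE4. The summed TCA cycle genes ranged only from 9.36 to 10.00 per 10000 over the libraries. Ucp2, the uncoupling protein of immune cells, rose with APOE4 (0.77, SE 0.15, adjusted p = 0.0206, edgeR), at 138 and 135 CPM in the P301S/E4 pair against 77.6 and 83.9 CPM in the P301S/EKO pair. It was at 142 and 110 CPM in the E4 pair. None of the other 4 genes of uncoupling, ATP export and ATP synthase inhibition was called in any contrast. Of 80 cytosolic ribosomal protein genes, 3 rose with tau (Rpl10a, Rpl36 and Rps18), beside 7.80% of all genes tested.

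Glycolysis was called in both directions. With tau, 3 of 17 genes rose: Pfkl, a phosphofructokinase (0.75, SE 0.16, adjusted p = 0.00822, edgeR), Pkm, pyruvate kinase (0.83, SE 0.17, adjusted p = 0.00574, edgeR), and Tpi1, triosephosphate isomerase (0.58, SE 0.16, adjusted p = 0.0290, edgeR). Hk1, a hexokinase that docks on mitochondria, fell with tau (-0.88, SE 0.24, adjusted p = 0.0287, edgeR) and with APOE4 (-0.99, SE 0.24, adjusted p = 0.0488, edgeR). Of all genes tested, 7.80% rose and 9.24% fell with tau, and 1.87% fell with APOE4. DESeq2 called 2 of the 17 glycolysis genes with tau and 0 with APOE4. Pkm was at 91.1 and 96.7 CPM in the P301S/E4 pair, at 59.6 and 43.1 CPM in the E4 pair and at 67.2 and 73.5 CPM in the P301S/EKO pair, so that both P301S/E4 libraries were above the rest, including the one in which the oxidative phosphorylation genes were lowest. The summed glycolysis genes gave -0.10 (-0.14 to -0.07) in the P301S/E4 TREM2 pair. With tau their sum gave 0.32 (0.27 to 0.36) in TREM2+ and 0.24 (0.20 to 0.28) in TREM2-. Much of the sum was Hk2, with 11290 of 17223 UMIs in P301S/E4/TREM2-. Hk2 was at 1332 and 1348 CPM in P301S/E4/TREM2+ and P301S/E4/TREM2-.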

How the data were processed

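Nuclei were profiled with 10x Genomics v3.1 chemistry, per the labels' protocols. The deposited matrices held raw UMI counts per nucleus, made by the authors with Cell Ranger 3.0.1 per the file headers and aligned to mm10 per the submitters' processing notes. Whether intronic reads were counted, and by strand, is not given in the sources used here. Nuclei were kept at 200 or more genes and 5% or fewer mt- UMIs, no doublet caller was run, and near-identical pseudogenes were not analysed here.

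UMIs were summed per library and fitted with edgeR 4.0.16 (R 4.3.3; TMM, filterByExpr, quasi-likelihood F test), with background and TREM2 genotype as terms. The fit covered 12515 genes with 2 residual degrees of freedom and a common dispersion of 0.0171. With 1 pool per genotype, p-values measure the spread of pools around this additive model, and no interaction can be tested. The standard error (SE) is the log2 fold change divided by the square root of F. The fit was also run on counts simulated from the same additive model, which cannot show whether the real pools follow that model. A gene said to have risen or fallen passed the F test. Medians of ratios over all genes, and those by gene span, had 0.5 CPM added to each level. CPM are not scaled by gene length, so levels are compared between libraries and not between genes.

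Clusters came from scanpy 1.11.5 and leidenalg 0.10.2 (2000 variable genes, 30 components, 15 neighbours, resolution 1), without the members, mt- genes, Trem2, Apoe and sex-linked markers. A cluster was called microglia-like with at least 12 of 23 markers at 0.5 or more of their median level over clusters, no more than 2 times the median UMIs of its libraries, and no other class ahead of it. This rule was chosen after seeing the data. The marker count alone separated little, as cluster 6 (22 of 23) and cluster 12 (17 of 23) also met it. Those 2 clusters were set apart by markers of other classes. Gene spans came from GENCODE vM21. The authors' deposited tables gave log fold changes with no stated base, treated here as a score, and p-values computed over nuclei. The authors' deposited table of marker genes was not used.

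Named with values were members called in a contrast, the 2 with most UMIs in each complex and among the assembly factors, the highest and lowest in each contrast among members with 100 or more UMIs, and all paralogue sets. The members and lists were chosen with earlier results of these data known. DESeq2 1.42.0, other scalings and filters, other limits on nuclei, thinning to 500 UMIs and leaving out each library were tried as alternatives.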

Additional observations from a re-analysis of the deposited data

Results flagged for a closer look

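The summed nuclear-encoded genes moved in opposite directions with TREM2 in the backgrounds carrying the tau transgene: the log2 ratio of TREM2- over TREM2+ was -0.41 in P301S/E4 and 0.18 in P301S/EKO. The summed mt- genes moved in opposite directions too, with 0.43 in P301S/E4 and -0.35 in P301S/EKO. Each value compares 1 library with 1 library, and the difference between the backgrounds was not tested.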

How the results depend on the processing

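No paired analysis was possible because each genotype had 1 library and the replicate numbers pair nothing. With no filter on low counts, 226 genes were called for TREM2 (14 before), 11 members with tau (6 before), and with APOE4 13 members (1 before), 12 mt- genes (7 before) and 1258 genes (459 before). Without the background term 1 gene was called for TREM2. DESeq2 called 3 members and 1347 genes with tau, against 2133 by edgeR. At most 1% mt- UMIs gave 2 members with tau, Cox6a2 as risen and Ndufa11 of complex I as fallen. None of the complex IV falls of the main fit was called there. With APOE4 this limit gave 0 members, 1 mt- gene and 279 genes. With APOE4, no composition factor gave 4 members, no mt- limit 3 members and 3 mt- genes, 500 or more genes per nucleus 3 mt- genes, thinning to 500 UMIs 0 members and 273 genes, and microglia-like clusters 0 members. Leaving out each library in turn, the members called ranged from 1 to 32 with tau, 0 to 27 with APOE4 and 0 to 1 for TREM2, and their median log2 fold change from -0.53 to -0.0017, -0.62 to 0.0046 and -0.25 to 0.15. All genes called ranged from 1083 to 2788, 282 to 1300 and 11 to 114, mt- genes called from 9 to 13, 2 to 13 and 0 to 2, and the mt- median from -1.38 to -0.79, -1.06 to -0.37 and -0.08 to 0.36, in the same order. The summed level per 10000 UMIs in P301S/E4/TREM2- (32.1) was 32.8 with no mt- limit, 31.6 with 500 or more genes, 33.2 after thinning, 31.5 in microglia-like clusters, 32.7 with mt- and ribosomal protein genes out of the totals and 31.7 without the cluster led by ribosomal protein genes, the last chosen after seeing the data. With no mt- limit it was 46.1 in E4/TREM2+, 49.0 in E4/TREM2-, 46.3 in P301S/EKO/TREM2+ and 53.6 in P301S/EKO/TREM2-. With 500 or more genes it was 47.8 and 42.2 in the E4 pair and 48.2 in P301S/EKO/TREM2-. After thinning it was 41.8 in P301S/E4/TREM2+, 41.6 and 42.1 in the E4 pair and 41.1 and 45.8 in the P301S/EKO pair, in microglia-like clusters 39.2, 39.8, 40.8, 38.0 and 45.5, and with the smaller totals 43.4, 45.2, 44.4, 45.0 and 51.0 in that order. P301S/E4/TREM2- was lowest in each of these settings. As log2 ratios, the P301S/E4 TREM2 pair (-0.41) was -0.33 after thinning and -0.32 in microglia-like clusters. The E4 TREM2 pair (-0.03) was 0.0899 with no mt- limit, -0.18 with 500 or more genes, 0.0156 after thinning and 0.0364 in microglia-like clusters, and the P301S/EKO pair (0.18) was 0.12 with 500 or more genes and 0.26 in microglia-like clusters. The tau pair in TREM2- (-0.43) was -0.58 with no mt- limit, -0.34 after thinning and -0.38 in microglia-like clusters, and in TREM2+ (-0.05) -0.0931, 0.0067 and -0.0207, with -0.18 at 500 or more genes. The APOE4 pair in TREM2- (-0.63) was -0.71, -0.46 and -0.53, and in TREM2+ (-0.04) -0.10, 0.0231 and 0.0435 under the same 3 settings, so the tau pair in TREM2+ turned sign after thinning, the APOE4 pair in TREM2+ did so after thinning and in microglia-like clusters, and the cause was not tested. The median ratio over clusters in the E4 pair (1.06) was 1.03 and 1.02 at Leiden resolutions 0.5 and 2, and for P301S/E4/TREM2+ over P301S/EKO/TREM2+ (1.02) 0.989 at 0.5. Members with under 100 UMIs in all libraries were too sparse to compare.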

Other observations

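The authors' deposited table of TERM nuclei (their name for a microglial state) against homeostatic nuclei listed 86 of the members, 58 of them above 0 and 27 below, with a median log fold change of 0.18. All 16056 genes of that table had a median of 0.34, with 11607 above 0. At an adjusted p of 0.05 or less, 0 of the members and 6.33% of all genes passed there. Cox7c had the smallest p of the members in the authors' deposited table, 1.06e-05 (log fold change 0.37, adjusted p = 0.171). The p-values of that table treat nuclei as replicates.

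The authors' deposited table of P301S/E4/TREM2+ against P301S/E4/TREM2- nuclei had 58 of 86 members above 0, that is, higher in TREM2+, and 26 below, with a median of 0.17. All genes of the authors' deposited table had a median of -0.21, with 4783 of 16055 above 0. Cox6a2 stood at 1.27 there, higher in TREM2+, with an adjusted p of 1 in the authors' deposited table. None of the members passed the adjusted threshold in the authors' deposited table, and 1.23% of all genes did.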
